A study of Mus musculus with 3 samples.

Results

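The transcription factors that set the course of granulopoiesis were examined in Ly6G+ (Gr-1+) bone marrow (BM) myeloid cells of mice given an interleukin-27 vector or a control vector. The set was chosen by gene symbol as 10 genes, Cebpa, Cebpb, Cebpd, Cebpe, Gfi1, Spi1, Runx1, Irf8, Klf4 and Ikzf1, and all 10 were found among the 16072 named genes of the expression table. Expression was given as FPKM, that is, fragments scaled to transcript length and to the mapped total of the library, a scale on which levels of different genes can be set side by side.

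All mice were C57BL/6 animals bearing B16.F10 melanoma cells, injected under the skin 1 week before the vector. The AAV-Ctrl group (2 libraries) received a control adeno-associated virus, and the AAV-IL-27 group (1 library, replicate 2) received a virus carrying the IL-27 cDNA, both into muscle. Cells were collected 3 weeks after the vector. Where 3 values of a gene or list follow one another below, the first pair are those of AAV-Ctrl replicates 1 and 2 and the last is that of AAV-IL-27. The design text speaks of 4 mice but lists 2 and 1, and with a single AAV-IL-27 library matched to a label every difference below has no replicate check. A further column of the table, by its name another AAV-IL-27 library, matched no listed sample and was left out. For orientation, differences were set against the difference between the AAV-Ctrl libraries, and a gene was called lower or higher when its log2(FPKM + 1) in AAV-IL-27 lay at least 1 below or above each AAV-Ctrl library. For a single gene, an exact permutation test over 3 libraries cannot give a two-sided p below 0.667 or a one-sided p below 0.333. A limma-trend fit over all genes was run as an alternative.

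Granulocytes arise from progenitors in which PU.1 (Spi1) and C/EBPα open the myeloid programme, C/EBPε drives the later granule stage, and C/EBPβ sustains granulocyte output under inflammatory demand. Gfi1 and IRF8 pull in opposite directions: Gfi1 is a repressor that favours neutrophils, whereas IRF8 favours monocytes and dendritic cells and limits neutrophil production. IL-27 is a cytokine made of the subunits EBI3 and p28 that signals through the JAK-STAT pathway, whose STAT factors bind the palindromic GAS element.

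The libraries were alike in estimated depth, at about 19480000, 19410000 and 19120000 fragments. Of all named genes, 9130 had a mean FPKM of at least 1 and entered the counts, and between the AAV-Ctrl libraries the absolute log2 difference of these genes had a median of 0.09 and a 99th percentile of 0.57. The labelled cell type was matched by its markers. The 11 neutrophil markers summed to 173167, 168929 and 163939 FPKM, and 0 of 11 was called lower or higher.

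None of the members passed the size rule. Of the 10, 9 had a mean FPKM of at least 1, the exception being Klf4. Among these 9, 0 lay at least 1 below both AAV-Ctrl libraries, against 2.32% of all genes tested, and 0 lay at least 1 above both, against 0.307%. At a threshold of 0.5, 1 member, Irf8, was lower (7.01% of all genes) and 0 were higher (1.57% of all genes). The AAV-IL-27 value lay outside the AAV-Ctrl values for 7 of 9 members, a share near the 80.8% of all genes tested that did the same. The median log2 difference of the 9 members was 0.07, beside -0.01 over all genes tested, and the members' median difference between the AAV-Ctrl libraries was 0.01. In 6 of the 9 the absolute difference was under 0.15.

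**Figure D1:**
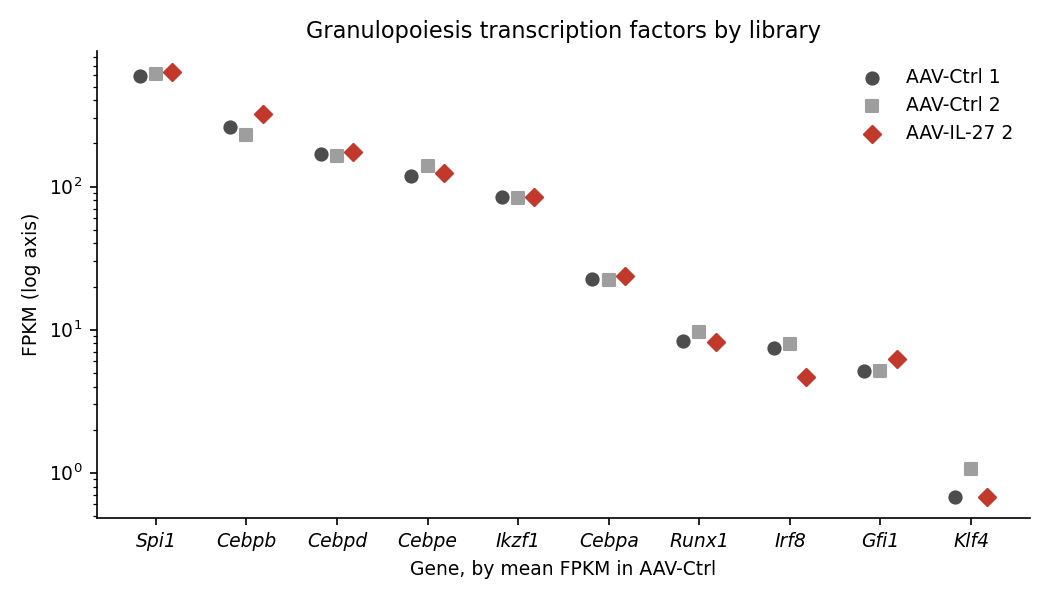
FPKM of the 10 transcription factors (log axis) in AAV-Ctrl 1 (dark circles), AAV-Ctrl 2 (grey squares) and AAV-IL-27 (red diamonds), ordered by their AAV-Ctrl mean. Levels run from about 600 for Spi1 to about 1 for Klf4. The gap between libraries is widest for Irf8, at 7.49 and 7.89 against 4.66 with AAV-IL-27. Next is Klf4, where the AAV-Ctrl libraries themselves stand apart, at 0.68 and 1.06.

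The members covered a wide span of levels. In both AAV-Ctrl libraries the order of FPKM from high to low was Spi1, Cebpb, Cebpd, Cebpe, Ikzf1, Cebpa, Runx1, Irf8, Gfi1 and Klf4, and the AAV-Ctrl values of no neighbouring pair overlapped. In AAV-IL-27 the order was kept except that Irf8 and Gfi1 changed places. The granule-stage and inflammatory C/EBP genes thus stood above Cebpa in each of the 3 libraries.

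Irf8 was the member that differed most. It encodes IRF8, the interferon regulatory factor of monocyte and dendritic cell fate, and lies at chr8:120736358-120756694 (GRCm38.p6, the RefSeq form of mm10). Its level was 7.49 and 7.89 FPKM under the control vector and 4.66 with AAV-IL-27. The AAV-IL-27 level was 60.6% of the AAV-Ctrl mean of 7.69 ± 0.283 FPKM (SD, n = 2), and it lay below both AAV-Ctrl libraries, which were close to each other. The log2 difference was -0.62 against the mean, -0.58 against AAV-Ctrl 1 and -0.65 against AAV-Ctrl 2, whereas the AAV-Ctrl libraries differed by 0.07. Among all genes tested, 601 (6.58%) had a difference this low or lower. In bulk RNA, fewer cells that express a gene and less of its RNA per cell cannot be told apart.

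Counting error was small beside the Irf8 difference. With the shortest listed transcript (2270 nt) the FPKM values corresponded to an estimated 320, 337 and 196 fragments, with 95% exact Poisson intervals of 285 to 357, 302 to 375 and 170 to 225. The AAV-IL-27 interval did not overlap either AAV-Ctrl interval, and with the longest transcript (2847 nt) the intervals were likewise apart. These intervals cover counting error only and not the variation between mice. A limma-trend fit over all genes, which assumes that the AAV-IL-27 library varies like the AAV-Ctrl libraries, gave Irf8 an adjusted p of 0.0195 (standard error 0.11). The same fit called 1 of the 9 members lower, against 7.65% of all genes, and 1 higher, Cebpb, against 2.84%.

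The sequence before the Irf8 start site is shown because Irf8 is the member with the largest difference and its first window holds matches to the GAS letters. Promoter windows (RefSeq, GRCm38.p6) of 250 bases before to 50 bases after a start site were at hand for 7 of the 10 members. Below are the 250 bases before the first start site of Irf8, chr8:120736108-120736357 on the plus strand, and of Irf1, chr11:53769764-53770013 on the plus strand, an interferon regulatory factor known as a target of the JAK-STAT pathway. They are written 5′ to 3′ with each match to the GAS letters TTCNNNGAA in capitals.

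Irf8: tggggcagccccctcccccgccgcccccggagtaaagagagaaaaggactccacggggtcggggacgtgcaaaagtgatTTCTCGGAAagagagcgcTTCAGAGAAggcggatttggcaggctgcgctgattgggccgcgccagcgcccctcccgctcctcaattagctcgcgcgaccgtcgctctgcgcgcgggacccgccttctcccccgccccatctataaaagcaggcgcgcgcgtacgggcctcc

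Irf1: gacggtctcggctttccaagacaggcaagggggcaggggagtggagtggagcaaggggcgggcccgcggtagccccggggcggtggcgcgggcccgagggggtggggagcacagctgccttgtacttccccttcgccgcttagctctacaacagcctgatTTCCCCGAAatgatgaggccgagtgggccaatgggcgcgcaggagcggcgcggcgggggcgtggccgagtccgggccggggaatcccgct

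The first Irf8 window held 2 matches, TTCTCGGAA at chr8:120736187-120736195, beginning 171 bases before the start site, and TTCAGAGAA at chr8:120736205-120736213, beginning 153 bases before it. The first Irf1 window held 1, TTCCCCGAA at chr11:53769924-53769932, beginning 90 bases before the start site. Both genes have a second window at a later start site, and neither of these held a match. The letters TTCNNNGAA read the same on both strands and occur in 8.30% of 32851 windows of this length, so a match is a description of the sequence and not evidence of binding. The direction of the Irf1 values was opposite to that of Irf8, at 84.2, 86.0 and 104 FPKM, with a log2 difference of 0.28 that did not pass the size rule. Among the other members with a window, the GAS letters were found only for Ikzf1, after a second start site. A match was thus present for 2 of the 7 members, and for 2 of 13 other IRF and STAT genes with a window, Irf1 among them. The C/EBP letters TTGCNNAA (10.8% of windows, either strand) were found for Gfi1, and the ETS letters GAGGAA (28.3%) and the RUNX letters TGTGGT (16.8%), also on either strand, for Runx1 itself. The core letters of the interferon-stimulated response element (3.44% of windows) were found for none of the 7 members.

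Gfi1, the zinc finger repressor that favours neutrophils, did not pass the size rule. It lies at chr5:107716655-107725805 and had 5.11 and 5.17 FPKM under the control vector and 6.28 with AAV-IL-27. The AAV-IL-27 value was above both AAV-Ctrl values and 122% of their mean of 5.14 ± 0.0424 FPKM (SD, n = 2), a log2 difference of 0.25. Of all genes tested, 28.1% had an absolute difference at least this large. The estimated 255, 258 and 308 fragments (shortest transcript, 2639 nt) had intervals of 224 to 288, 227 to 291 and 275 to 345, which overlapped.

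The RNA levels of the opposing factors were set against each other as a ratio within each library, which does not depend on how libraries are scaled. In bulk RNA the paired genes may be read from different cells, so the ratio is not a balance within a cell. The ratio of Irf8 to Gfi1 was 1.47 and 1.53 under the control vector and 0.742 with AAV-IL-27. Irf8 was thus the more abundant of the pair per length in both AAV-Ctrl libraries and the less abundant in AAV-IL-27, where the ratio was 49.6% of the AAV-Ctrl mean. Against Cebpa, whose own level was nearly level across libraries, the Irf8 ratio was 0.330, 0.353 and 0.197, or 57.6% of the AAV-Ctrl mean in AAV-IL-27.

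**Figure D2:**
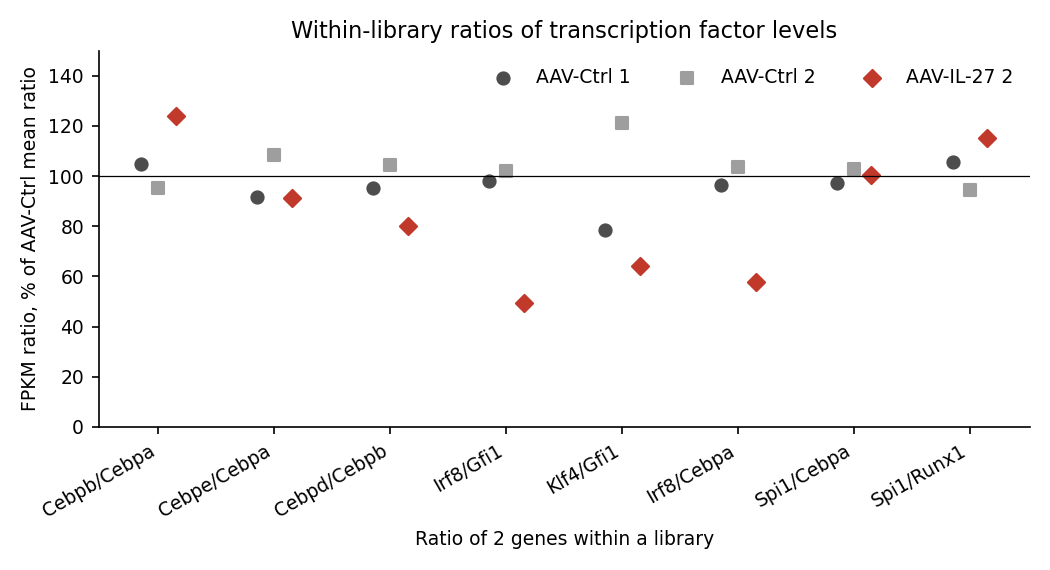
Ratios of FPKM between pairs of members within a library, each as a percentage of the mean ratio of the AAV-Ctrl libraries (horizontal line at 100). The AAV-IL-27 library (red diamonds) is farthest from the AAV-Ctrl libraries for Irf8/Gfi1, at 49.6%, and Irf8/Cebpa, at 57.6%, while Spi1/Cebpa lies between the AAV-Ctrl values.

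Among the 4 C/EBP members, Cebpb stood above both AAV-Ctrl libraries by more than those libraries differed, and the other members differed little. C/EBP factors are basic leucine zipper proteins that pair with one another and bind the same type of site. Cebpb encodes the C/EBP of emergency granulopoiesis and lies at chr2:167688915-167690432. It was at 259 and 231 FPKM under the control vector and 319 with AAV-IL-27. The AAV-IL-27 value exceeded both and was 130% of the AAV-Ctrl mean of 245 ± 19.8 FPKM (SD, n = 2), or 123% and 138% of the single libraries. The log2 difference was 0.38 with AAV-Ctrl libraries that differed by -0.16 (AAV-Ctrl 2 minus AAV-Ctrl 1), and limma-trend gave a standard error of 0.09 and an adjusted p of 0.0474. Of all genes tested, 15.8% had an absolute difference as large.

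Cebpa, which is needed to form granulocyte-monocyte progenitors, lies at chr7:35119293-35121928. Its FPKM was 22.7, 22.3 and 23.7, a log2 difference of 0.07. Cebpd, an acute-phase member of the family at chr16:15887286-15889545, was at 168, 165 and 174 FPKM, again a difference of 0.07. In both genes the AAV-IL-27 value lay slightly above the AAV-Ctrl values, at 105% of their mean. Cebpe, the factor of the promyelocyte to myelocyte step and of secondary granules, lies at chr14:54710363-54712174 and was at 119, 139 and 124 FPKM. Here the AAV-IL-27 value fell between the AAV-Ctrl libraries, whose own log2 difference of 0.22 exceeded the difference of -0.05 from their mean.

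As ratios, Cebpb to Cebpa was 11.4, 10.3 and 13.5, or 124% of the AAV-Ctrl mean. Cebpd to Cebpb was 0.649, 0.712 and 0.546, or 80.2%. Cebpe to Cebpa was 5.25, 6.21 and 5.24, so the AAV-IL-27 library was level with AAV-Ctrl 1. Of the other genes listed with the family, Cebpg and Ddit3 are leucine zipper genes, while Cebpz shares only the symbol. These gave 0 of 3 calls and a median difference of 0.18, which was 0.24 without AAV-Ctrl replicate 1 and 0.11 without replicate 2. The larger differences of these were Cebpz (7.15, 6.51 and 9.16 FPKM, difference 0.38, as large as that of Cebpb) and Ddit3, which encodes the stress-induced inhibitor CHOP (32.0, 29.0 and 34.6 FPKM, difference 0.18).

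**Figure D3:**
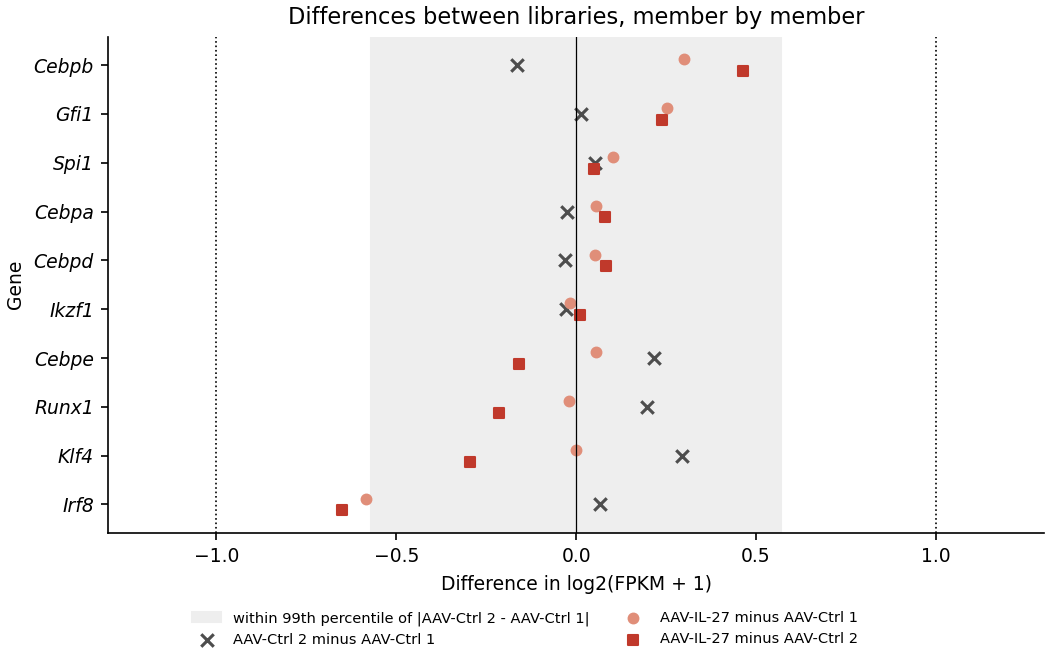
Differences in log2(FPKM + 1) for each member: AAV-IL-27 minus AAV-Ctrl 1 (light circles), AAV-IL-27 minus AAV-Ctrl 2 (red squares) and AAV-Ctrl 2 minus AAV-Ctrl 1 (crosses). The grey band marks the 99th percentile, 0.57, of the absolute difference between the AAV-Ctrl libraries over all genes tested, the dotted lines mark the size rule, and Irf8 alone lies outside the band.

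Spi1 was the most abundant member and Runx1 among the low ones, and both stayed near the AAV-Ctrl level. Spi1 encodes PU.1, the ETS factor needed for all myeloid lineages, at chr2:91082374-91115759. Its FPKM was 589 and 611 under the control vector and 632 with AAV-IL-27, which was 105% of the AAV-Ctrl mean of 599.9 ± 15.8 (SD, n = 2). The log2 difference of 0.08 stood beside 0.05 between the AAV-Ctrl libraries. Runx1, a partner of PU.1 and C/EBPα at myeloid genes, lies at chr16:92601466-92826074 and was at 8.27, 9.62 and 8.15 FPKM. The AAV-IL-27 value lay just below AAV-Ctrl 1, with a log2 difference of -0.12 from the mean, smaller than the 0.20 between the AAV-Ctrl libraries. The ratio of Spi1 to Cebpa, 25.9, 27.4 and 26.7, lay within the AAV-Ctrl values, and that of Spi1 to Runx1 was 71.2, 63.5 and 77.6.

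Ikzf1 and Klf4 gave no difference that could be told from the spread. Ikzf1 encodes Ikaros, a zinc finger factor with roles in lymphoid and granulocytic cells, at chr11:11684962-11772930. It was the member with the smallest difference, at 85.1, 83.5 and 84.2 FPKM, and its AAV-IL-27 level was 99.8% of the AAV-Ctrl mean. Klf4, a Krüppel-like factor of monocyte differentiation at chr4:55527137-55532475, was close to the detection range, at 0.68, 1.06 and 0.68 FPKM. These values corresponded to an estimated 39, 61 and 38 fragments with intervals of 27.8 to 53.4, 46.6 to 78.2 and 27.3 to 52.7. The AAV-IL-27 value equalled AAV-Ctrl 1, and no difference beyond the AAV-Ctrl values was seen at these low fragment numbers.

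Downstream of the members, no granule gene was called, and a few genes known to be under Gfi1 or C/EBP control were higher. Of 10 specific granule genes that depend on C/EBPε, 0 was called, with a median difference of -0.07. The 2 with the largest differences were Fcnb (18.3, 21.4 and 15.3 FPKM, difference -0.35), which encodes ficolin B, and Chil3 (1426, 1586 and 1220 FPKM, difference -0.30), which encodes a chitinase-like protein. Of 6 genes in a list of azurophil granule genes and others that depend on C/EBPα and Myb, 0 was called, and their median of 0.33 stood beside 0.22 between the AAV-Ctrl libraries themselves. Igsf6 and Ms4a3 of this list encode membrane proteins. Without Igsf6, the other 5 genes had a median of 0.29, beside 0.24 between the AAV-Ctrl libraries. Elane, which encodes neutrophil elastase, was at 17.95, 20.9 and 26.1 FPKM (difference 0.41), and Igsf6 was at 248, 232 and 312 FPKM (difference 0.38).

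Of 8 receptor genes under C/EBP and PU.1, 1 was higher (0.307% of all genes tested). Cd14, the lipopolysaccharide co-receptor, was at 14.95, 12.9 and 39.6 FPKM, 285% of the AAV-Ctrl mean, a log2 difference of 1.45. The list had a median of 0.19, and 0 was lower. Of 12 genes that Gfi1 is known to repress, 9 were tested. Of these, 4 were higher (0.307% of all genes tested) and 0 lower (2.32%). Their median was 0.31, with Irf8 itself included. Egr2 and Nab2 were under 1 FPKM in both AAV-Ctrl libraries and passed the filter only through AAV-IL-27. The count of 4 thus follows in part from the values compared. Csf1, the macrophage growth factor gene, was at 17.9, 11.1 and 68.0 FPKM (difference 2.19), and Egr1, an immediate early zinc finger gene, was at 2.11, 1.57 and 13.97 FPKM (difference 2.40). Egr2 was at 0.45, 0.30 and 2.67 FPKM (difference 1.42), and Nab2, which encodes a corepressor of the EGR factors, was at 0.69, 0.55 and 3.70 FPKM (difference 1.54). In these 4 genes AAV-IL-27 stood above both AAV-Ctrl libraries, and the part of Gfi1 in their levels was not tested. The median of the list was 0.00 with no filter on low values and -0.02 at a mean FPKM of at least 5, so the list as a whole had no steady direction.

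Most relatives of the members, like the members, did not pass the size rule. Of 16 ETS, RUNX, GFI and IKZF genes outside the set, 13 were tested and 3 were lower (2.32% of all genes tested), Spib, Spic and Gfi1b. Spib, the B cell and plasmacytoid dendritic cell relative of PU.1, was at 2.77, 5.76 and 0.55 FPKM (difference -1.70). Spic, the relative that marks iron-recycling macrophages, was at 17.4, 15.2 and 4.13 FPKM (difference -1.75). Gfi1b, the erythroid and megakaryocytic relative of Gfi1, was at 3.86, 3.59 and 0.85 FPKM (difference -1.35). Each of these 3 is known chiefly from a cell type other than the neutrophil, and the median of the 13 was 0.11.

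Among the KLF genes and the cofactors, 1 gene of each list passed the rule. Over all genes tested, the same rule called 2.32% lower and 0.307% higher. Of 11 KLF genes tested besides Klf4, 1 was lower, Klf1, the erythroid factor, at 7.18, 7.94 and 0.53 FPKM (difference -2.48), and 0 was higher. Of 14 cofactor genes tested, 1 was lower, Zfpm1, which encodes the GATA1 partner FOG1, at 6.40, 6.67 and 0.83 FPKM (difference -2.04), and 0 was higher. Of 6 erythroid and megakaryocyte factor genes, 2 were lower, Gata1 (3.83, 4.12 and 0.54 FPKM, difference -1.69) and Tal1 (4.4, 4.36 and 1.40 FPKM, difference -1.16). Of 3 lymphoid factors tested, Pou2af1, a B cell coactivator gene, was lower (1.73, 3.66 and 0.35 FPKM, difference -1.40).

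Of 9 monocyte and macrophage factors tested, 2 were lower (2.32% of all genes tested) and 3 higher (0.307%), the latter being Egr1, Egr2 and Nab2. Egr2 and Nab2 entered the tested genes only through AAV-IL-27, so their calls are not independent of the filter. Maf, a basic leucine zipper factor of macrophages, was among the lower ones at 5.68, 4.98 and 1.74 FPKM (difference -1.21). Of 10 other granulocyte and progenitor factors tested, 0 was called. The larger differences were Myc (2.19, 1.73 and 1.07 FPKM, difference -0.51) and Zbtb16 (1.41, 1.35 and 2.25 FPKM, difference 0.45). Of 13 IRF and STAT genes tested, 0 was called, with a median of 0.20 beside 0.13 between the AAV-Ctrl libraries. Their largest differences were Irf7 at 59.1, 82.0 and 97.4 FPKM (difference 0.48) and Irf4, too low to be tested, at 0.28, 0.84 and 0.09 FPKM. Of the IRF and STAT genes tested, none had a difference as low as that of Irf8, and the lowest was Stat3 at -0.05.

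**Figure D4:**
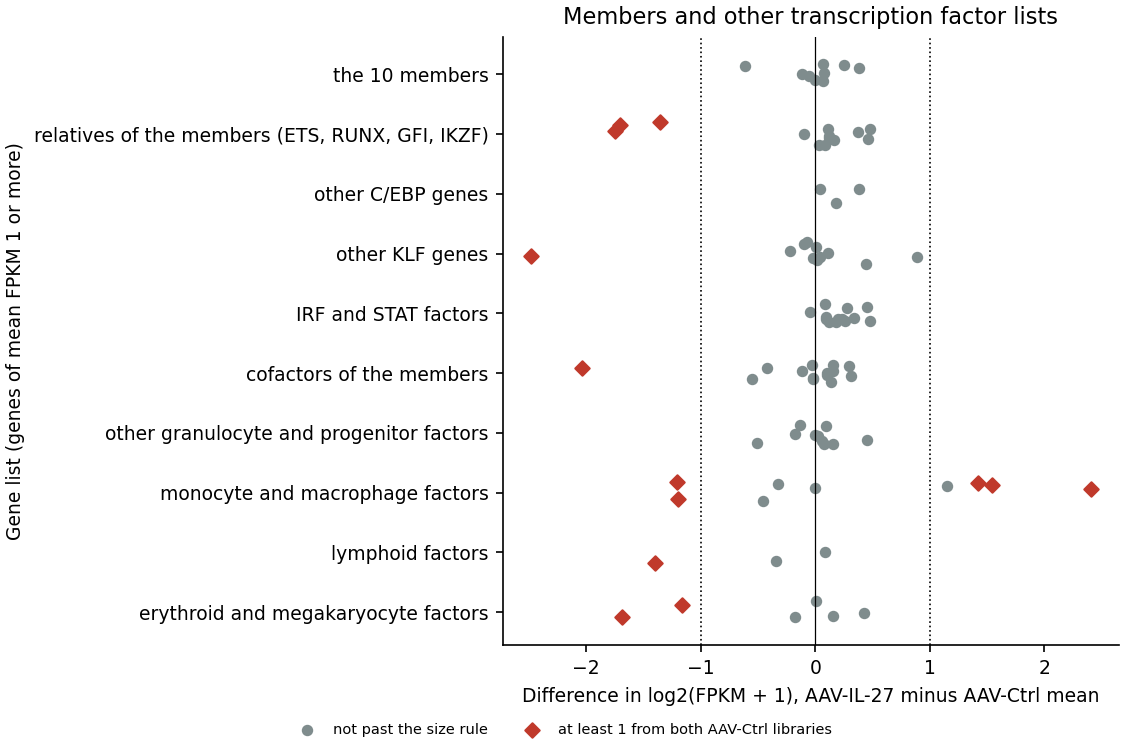
Difference in log2(FPKM + 1) between AAV-IL-27 and the AAV-Ctrl mean for the members and for other transcription factor lists, 1 point per gene with a mean FPKM of at least 1. Red diamonds lie at least 1 from both AAV-Ctrl libraries, the dotted lines mark a difference of 1, and the members lie between -0.62 and 0.38 while genes of other lineages reach -2.48.

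Markers of other cell types moved with these differences. The counts below stand beside 2.32% of all genes tested that were called lower. The 9 erythroid markers were all lower, with summed levels of 14758, 9876 and 1682 FPKM, so that AAV-IL-27 stood at 13.7% of the AAV-Ctrl mean. Of 11 macrophage markers 9 were lower, and the list summed to 983, 955 and 353 FPKM (36.4%). Of 6 B cell markers tested 5 were lower, with sums over the 11 listed of 34.9, 45.9 and 6.53 FPKM (16.2%), and of 5 megakaryocyte markers 3 were lower, with sums of 53.0, 59.2 and 9.61 FPKM (17.1%). Of 5 eosinophil, basophil and mast cell markers tested 1 was lower (43.7% as a sum), and of 12 cell cycle genes 6 were lower (43.9%). Klf1 and Spic are themselves in the erythroid and macrophage lists. The part of these cells in the lower levels of Klf1, Gata1, Tal1, Gfi1b, Zfpm1, Spic, Spib, Maf and Pou2af1 was not tested.

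Irf8 is known from dendritic cells, monocytes, macrophages and B cells, and the lists for these moved in different ways. The 10 monocyte markers, with 0 of 9 tested called, summed to 1175, 1242 and 1303 FPKM, 108% of the AAV-Ctrl mean. The 10 dendritic cell markers, with 0 of 4 tested called, summed to 167, 226 and 153 FPKM, or 77.6%, but AAV-Ctrl 2 itself was 136% of AAV-Ctrl 1. This sum was carried by Cd74, an MHC class II chaperone gene that B cells and macrophages also express. Without it the sums were 40.5, 41.0 and 57.6 FPKM, or 142%. They then rested on Itgax (17.3, 11.9 and 24.6 FPKM), Runx2 (14.8, 13.9 and 20.1 FPKM) and Bst2 (6.63, 12.7 and 11.2 FPKM). The remaining markers were under 1 FPKM in every library, and none of them stood above both AAV-Ctrl libraries. The median difference of the 4 tested markers, Cd74 included, was 0.36, beside 0.23 between the AAV-Ctrl libraries. It was 0.17 without AAV-Ctrl replicate 1 and -0.04 with no filter on low values. Likewise, Ly6c2 made up most of the monocyte sum, which was 102% without it and then rested mainly on Csf1r and Ctss. The median difference of the 9 tested monocyte markers was 0.42, beside 0.10 between the AAV-Ctrl libraries. That median was 0.29 without AAV-Ctrl replicate 1 and -0.02 at a mean FPKM of at least 5, so it rested on low genes. Fn1, which encodes fibronectin, was the marker with the largest difference (1.71, 2.01 and 4.37 FPKM, difference 0.91), whereas Ctss (-0.09) and Csf1r (-0.02) had differences below 0. No marker of the macrophage, B cell, monocyte or dendritic cell lists was at 0 in any library. The part of any of these cells in the Irf8 level was not tested. The 8 progenitor markers summed to 16.6, 19.1 and 15.8 FPKM (88.5%), with 0 of 2 tested called, and the T and NK cell list to 11.9, 14.0 and 14.1 FPKM.

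**Figure D5:**
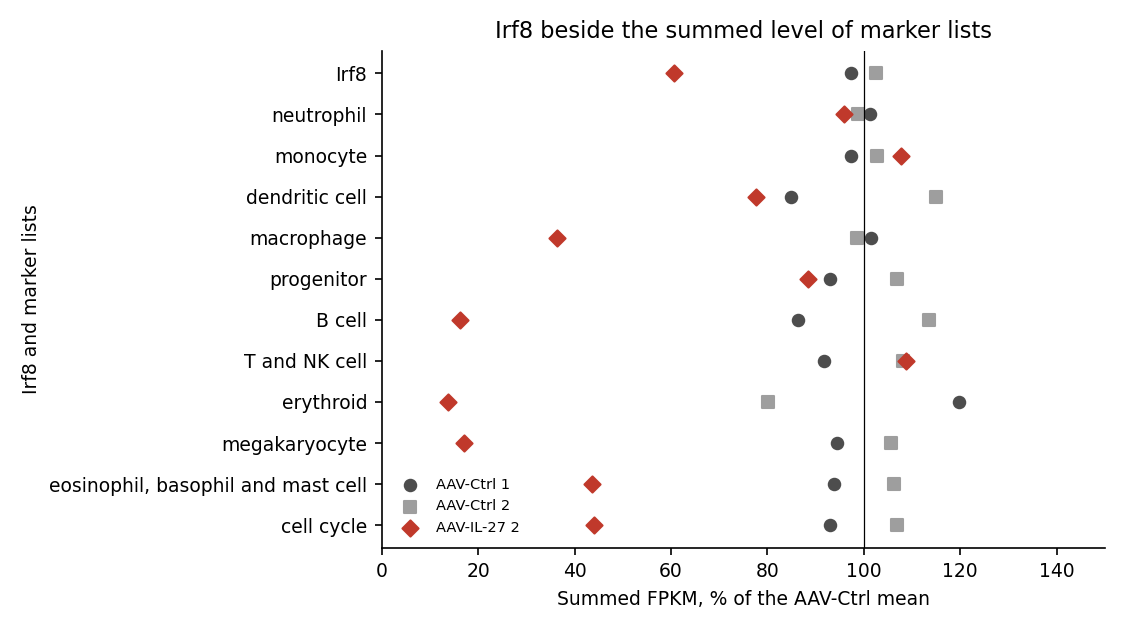
Irf8 and the summed FPKM of marker lists in each library, as a percentage of the AAV-Ctrl mean (vertical line at 100). In AAV-IL-27 (red diamonds) the erythroid, B cell and megakaryocyte sums lie at 13.7%, 16.2% and 17.1%, Irf8 at 60.6%, and the neutrophil and monocyte sums at 95.8% and 108%.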

How the data were processed

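RNA-seq was analysed for 3 libraries of BM Ly6G+ cells. The authors enriched mRNA with oligo-dT, prepared strand-marked libraries sequenced by BGI, and deposited FPKM values with 2 decimals for 16073 rows, of which 1 without a symbol was left out. The genome build, from the submitters' processing notes, is mm10, and the aligner and counting tool are not given in the sources used here. In the table, 1 further column of per-sample values, by its name another AAV-IL-27 library, was left unused because no listed sample matched its name. Columns were assigned to samples by name.

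Differences were computed as log2(FPKM + 1), with a pseudocount of 1, between AAV-IL-27 and the mean of the AAV-Ctrl libraries. Genes whose FPKM averaged 1 or more (9130) entered the counts, and adding 1 understates the change of low genes. The average was taken over all libraries used, so a low gene can pass through the group where it is high. The table holds no counts. Depth was estimated from the steps of low FPKM values over 10934 genes with a single transcript, where 71.5% to 74.5% of the values used lay within 0.15 of a whole fragment, so the fragment numbers given are approximate and a count test was not applied. limma-trend (limma 3.58.1, R 4.3.3, Benjamini-Hochberg adjustment, 1 residual degree of freedom) was an alternative only. Whether the libraries come from separate mice is given by the design text alone. Alternatives were other pseudocounts, filters, thresholds and scalings, and leaving out each AAV-Ctrl library. After seeing the data, marker sums without the most abundant gene and the azurophil list without Igsf6 were added.

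The members and the gene lists were chosen with earlier results of these data known. All members are named, and from each other list of factors or their target genes those that passed the size rule or, where none did, the 2 with the largest absolute difference. Marker lists are given by counts and sums. Genes named outside this rule are Irf1, Stat3, Klf10, Nr4a1, Runx2, Runx3, Irf5, Fn1, Ezh2, Nr1h3, Hdac2 and those named as carrying a marker sum. These were chosen after their values were seen. Cebpg and Ms4a3 are named only for what they encode. A gene that the rule would name is not reported here. Where a gene overlaps another or has several transcripts, the authors' counting may have split its fragments. Coordinates and promoter windows are RefSeq, GRCm38.p6. Software was matplotlib 3.10.9, scipy 1.17.1, pandas 2.3.3 and numpy 2.4.6 under Python 3.11.15. On simulated data for 9130 genes, the size rule called 200 of 200 changed and 0 of 8930 unchanged genes. All planted changes were larger than the size rule and lay in genes of higher level. Every gene was given the same spread, the median of the AAV-Ctrl libraries, also in the simulated AAV-IL-27 library. Complete calling thus followed from these settings, and the simulation gives no error rate for the real values.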

Additional observations from a re-analysis of the deposited data

How the results depend on the processing

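No member passed the size rule under other pseudocounts, scalings or filters, or without either AAV-Ctrl library. At a threshold of 0.5, 1 member was lower, and limma-trend called 1 lower and 1 higher. The median difference of the members, 0.07, was 0.11 with equal FPKM totals, 0.13 with median-ratio scaling, 0.0328 with no filter, and 0.0493 to 0.0554 without each AAV-Ctrl library in turn. Equal totals and median ratios moved AAV-IL-27 against AAV-Ctrl by 0.04 and 0.06 on the log2 scale. The log2 difference of Irf8 ranged from -0.72 to -0.57, that of Cebpb from 0.30 to 0.47 and that of Gfi1 from 0.24 to 0.30, each with 1 direction throughout. Those of Cebpe (-0.16 to 0.06) and Ikzf1 (-0.02 to 0.06) took either sign. Over all genes, 212 were lower, and this count was 396 and 425 at pseudocounts of 0.1 and 0.01, 93 at a mean FPKM of at least 5, 640 and 39 at thresholds of 0.5 and 2, and 698 under limma-trend. The count of higher genes, 28, was 46 at a pseudocount of 0.01, 143 and 5 at thresholds of 0.5 and 2, 259 under limma-trend, and 40 to 49 without AAV-Ctrl replicate 1 or 2. The cause of these shifts was not tested, and fewer genes or libraries enter in some. Replicate number 2 is found in both groups, but the labels do not say that equal numbers are matched, so no paired analysis was run. Without its most abundant gene, the dendritic cell marker sum turned from 77.6% to 142% of AAV-Ctrl, whereas those of the macrophage (28.7%), B cell (17.5%), erythroid (13.2%) and megakaryocyte (24.7%) lists remained under 100%. Klf4 was read from few fragments, an estimated 38 to 61, and other depths were not tested.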

Other observations

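Some transcription factor genes that missed the size rule stood above both AAV-Ctrl libraries. Of all genes tested, 80.8% lay outside the AAV-Ctrl values on either side. Other factor and cofactor genes that missed the rule lay below both, such as Ezh2 (difference -0.56), Nr1h3 (-0.45) and Hdac2 (-0.42). Klf10, a TGF-β-inducible KLF gene, was at 12.9, 9.48 and 21.4 FPKM in the same order of libraries (log2 difference 0.89). Nr4a1, an immediate early nuclear receptor gene, was at 18.5, 13.2 and 35.8 FPKM (difference 1.15) and missed the rule only against AAV-Ctrl 1. The RUNX relatives of Runx1 were also above both libraries, Runx2 at 14.8, 13.9 and 20.1 FPKM (difference 0.46) and Runx3 at 4.75, 4.10 and 6.52 FPKM (difference 0.47), whereas Runx1 itself was not. Irf5, which encodes an interferon regulatory factor of inflammatory cytokine genes, was at 23.8, 26.4 and 34.7 FPKM (difference 0.45). With 1 AAV-IL-27 library these values have no replicate check.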
